A study of Rattus norvegicus with 10 samples.

Results

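Pxmp4, Lysmd4, Creg2, Pde6g, Gabbr1, Ptprj and Abcg2 are 7 genes whose values differed in steps between single rats of this series. They were chosen by the width of their spread over the 10 arrays, so the spread and the steps are given as a description and were not tested. They are 7 of 14217 genes that the array names. All 16 probe sets that name 1 of these genes alone were taken, of 31042 probe sets tested in all, of which 20826 name a single gene. Pxmp4 has 2 of them, Lysmd4 has 4, Gabbr1 has 5 and Ptprj has 2, and Creg2, Pde6g and Abcg2 have 1 each.

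Each array measured RNA of the right brain of 1 male Wistar rat aged 7 weeks. The 5 DMHF rats breathed vapor of DMHF, a furanone aroma compound of strawberry, and the 5 control rats breathed vapor of distilled water. In both groups 5 mL of liquid gave the vapor for 5 min, the rats waited 10 min, and the inhalation took place before the dark period. From each rat 100 ng of RNA was labelled, and the sample titles call the rats biological replicates. Wistar is an outbred stock, and no genotype, litter or array batch of these rats was used here.

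Peroxisomes break down very long fatty acids, and Pxmp4 is a protein of their membrane. Lysmd4 is a membrane protein with a LysM domain, and Creg2 is a secreted glycoprotein made mainly in brain. Pde6g is the small inhibitory subunit of the cGMP phosphodiesterase of rod photoreceptors, whose activity it holds back in the dark, and it is also made in the pineal gland. Gabbr1 is the GABA-binding subunit of the GABA-B receptor, which works as a pair with Gabbr2. Ptprj is a receptor-type tyrosine phosphatase, and Abcg2 is an efflux pump of the vessels of the blood-brain barrier.

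The deposited values, between 5.25 and 14.22, were read as log2, with higher taken as more RNA. Differences between arrays were very small throughout. The median probe set had an SD over arrays of 0.0022 thousandths of a log2 unit, and the 95th percentile of the SD was 0.0189 thousandths. Values are therefore given as heights, in thousandths of a log2 unit above the lowest array of the same probe set. Heights give no fold change of RNA, and those of different probe sets cannot be set against each other as amounts. Array medians all lay at 7.24, with a range of 15.2 millionths, and 0 pairs of arrays were identical. For the labelled tissue, lists of brain markers gave 7 measured neuron genes, 5 measured astrocyte genes and 4 measured oligodendrocyte genes. Their lowest mean values were 9.06, 7.68 and 10.14, all above the array medians. Levels of different probe sets are not amounts, and markers of other tissues also lay above the medians, such as the choroid plexus gene Ttr at 12.78 and the meningeal gene Igf2 at 10.5, so these levels do not tell brain from its neighbours.

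For each gene the probe set of widest spread, called the leading probe set, was followed. In these 7 probe sets the rats did not spread evenly but fell onto levels with gaps between them. Between 2 neighbouring arrays in the order of a leading probe set, the largest gap took 40.3% of the whole range for Abcg2 and 55.9% for Pxmp4. These were the lowest and highest of the 7, against a median of 30.4% and a 95th percentile of 48.9% over all probe sets. The 2 largest gaps together took 70.4% to 85.0% of the range, above the 95th percentile of 68.9% over all probe sets for 7 of 7. In the other probe sets of these genes they took from 43.8% (Lysmd4 1385777_at) to 71.8% (Pxmp4 1393421_at). Of those, only the Pxmp4 probe set lay above that percentile. For comparison, 15400 of all 31042 probe sets also had 2 or more gaps over 20% of their range, so a pair of gaps of that size is common by itself. Because the genes were chosen for stepped spread on these same arrays, their gap shares, here and below, are a description. They cannot be set against a chance rate.

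**Figure D1:**
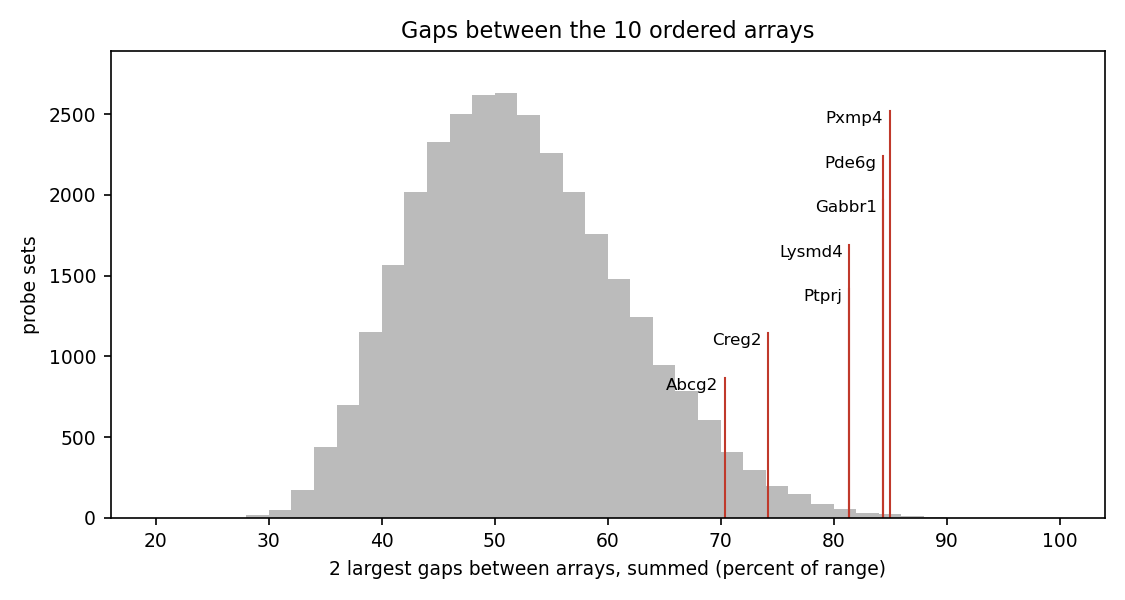
Grey bars count all 31042 probe sets by the share of their range, in percent, that the 2 largest gaps between the 10 ordered arrays take, and red lines mark the 7 leading probe sets at arbitrary heights. The median of all probe sets was 51.5%, and the 7 leading probe sets lay between 70.4% and 85.0%.

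The spread itself, by which the genes were chosen, ranked 2nd (Lysmd4), 3rd (Pxmp4), 5th (Creg2), 6th (Pde6g), 9th (Gabbr1), 13th (Ptprj) and 16th (Abcg2) among the 31042 probe sets. Of the 16 probe sets, 10 were among the 50 widest. The leading probe set of Lysmd4 had an SD 13500 times the median SD, and that of Abcg2 an SD 1360 times the median SD. No numeric limit of spread was part of the choice.

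**Figure D2:**
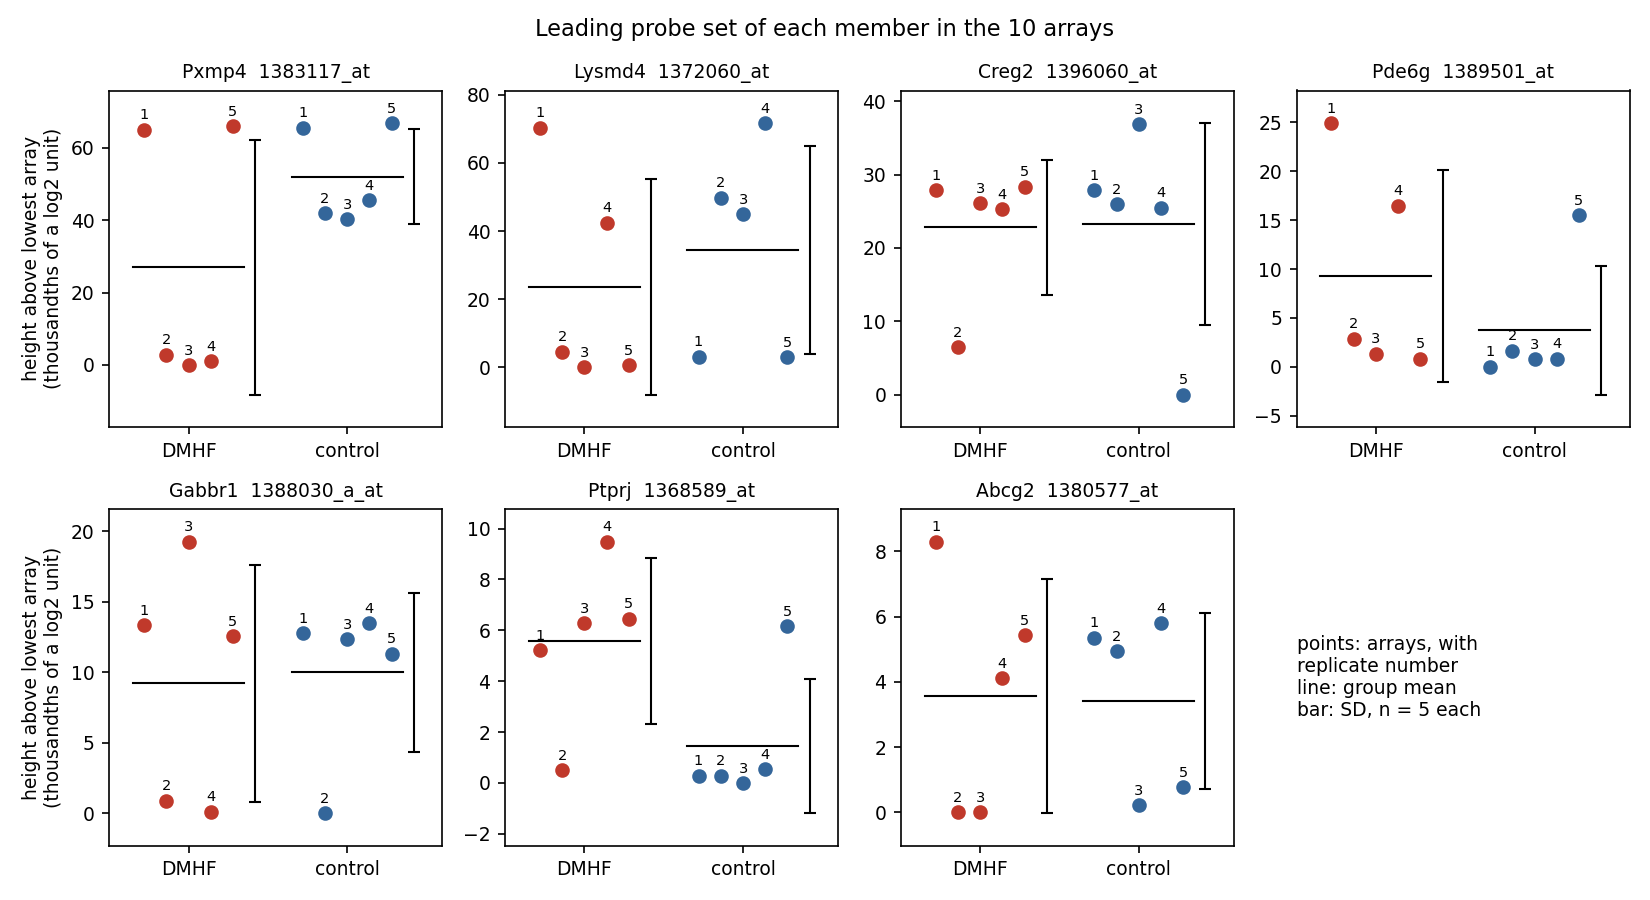
Points are the single arrays of the leading probe set of each of the 7 genes, DMHF left and control right, as heights in thousandths of a log2 unit above the lowest array, with group means and SD bars. In every panel the points form clusters with empty stretches between them, and the groups overlap in all 7 panels.

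Pxmp4 showed 3 levels. Its leading probe set, 1383117_at (mean 6.73), had heights of 64.9, 2.87, 0, 1.03 and 65.9 thousandths in DMHF rats 1 to 5, against 65.5, 41.8, 40.2, 45.5 and 66.8 thousandths in control rats 1 to 5. DMHF rats 1 and 5 and control rats 1 and 5 were high, control rats 2, 3 and 4 were in the middle, and DMHF rats 2, 3 and 4 were low. The 2 gaps between these levels made up 85.0% of the range of 66.8 thousandths, a larger share than in all but 0.0741% of probe sets.

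The other Pxmp4 probe set, 1393421_at (mean 6.96), placed every rat on the same level over a range only a small part as wide. It had heights of 2.83, 0.293, 0.196, 0 and 2.78 thousandths in DMHF rats 1 to 5, against 2.83, 1.69, 1.57, 1.55 and 3.27 thousandths in control rats 1 to 5. Pearson's r between both probe sets was 0.984 over the 10 arrays and 0.971 without the 2 arrays farthest from the median. Both probe sets read the same RNA samples, so this describes agreement between probes and not between separate measurements of the rats.

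Other peroxisome genes were less like Pxmp4, with r between -0.42 and 0.66 over the 10 arrays and an SD of at most 0.0123 thousandths. Of 25 genes chosen for this list (biogenesis, import and fatty acid oxidation), 20 were measured, and 0 passed limma's adjusted p for DMHF against control in either direction, with 5 nominally higher and 15 nominally lower. The median difference of the list was -0.358 within-group SD, beside 0.0477 within-group SD over 14217 genes. Pex10, part of the import machinery, had the smallest unadjusted limma p at 0.0260, with -1.62 within-group SD. The genes most like Pxmp4 over the 10 arrays were Esrrg (r = 0.950), Nacc2 (r = 0.942) and Scaf11 (r = 0.938), and 39.9% of single-gene probe sets had a closest partner with a higher r, so such values are common among 10 arrays. The SD of Esrrg, Nacc2 and Scaf11 was only 0.013, 0.00481 and 0.000972 thousandths, against 28.3 thousandths for the leading probe set of Pxmp4. Nacc2 lies on chromosome 3 like Pxmp4, but 2452 genes away in the order of the gene table of assembly GRCr8.

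Lysmd4 also showed 3 levels, with the rats placed differently on them. Its leading probe set, 1372060_at (mean 6.07), had heights of 70.3, 4.67, 0, 42.5 and 0.589 thousandths in DMHF rats 1 to 5, against 3.16, 49.7, 45.0, 71.7 and 2.97 thousandths in control rats 1 to 5. DMHF rat 1 and control rat 4 were high, DMHF rat 4 and control rats 2 and 3 were in the middle, and the other 5 rats were low. The 2 gaps made up 81.4% of the range.

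The other 3 probe sets of Lysmd4 ran in the opposite direction. Probe set 1384167_at (mean 8.17) had heights of 0, 2.27, 2.75, 1.72 and 3.05 thousandths in DMHF rats 1 to 5, against 2.72, 1.76, 1.52, 0.0967 and 2.93 thousandths in control rats 1 to 5. Probe set 1384166_a_at (mean 7.93) had heights of 0.147, 2.09, 2.81, 1.29 and 2.85 thousandths in DMHF rats 1 to 5, against 2.24, 1.50, 1.98, 0 and 2.91 thousandths in control rats 1 to 5. In both, DMHF rat 1 and control rat 4 were lowest, DMHF rat 4 and control rats 2 and 3 followed, and the 5 rats low in the leading probe set were highest. The fourth probe set, 1385777_at (mean 6.69), had the same 5 rats highest over a range of 0.034 thousandths. Against the leading probe set, Pearson's r over the 10 arrays was -0.950 for 1384167_at, -0.927 for 1384166_a_at and -0.939 for 1385777_at, and -0.929, -0.842 and -0.892 without the 2 farthest arrays. Among themselves the 3 probe sets had r between 0.923 and 0.967. A single direction for the gene therefore cannot be given: DMHF rat 1 and control rat 4 had the 2 highest values of 1 probe set of Lysmd4 and the 2 lowest values of the other 3.

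**Figure D3:**
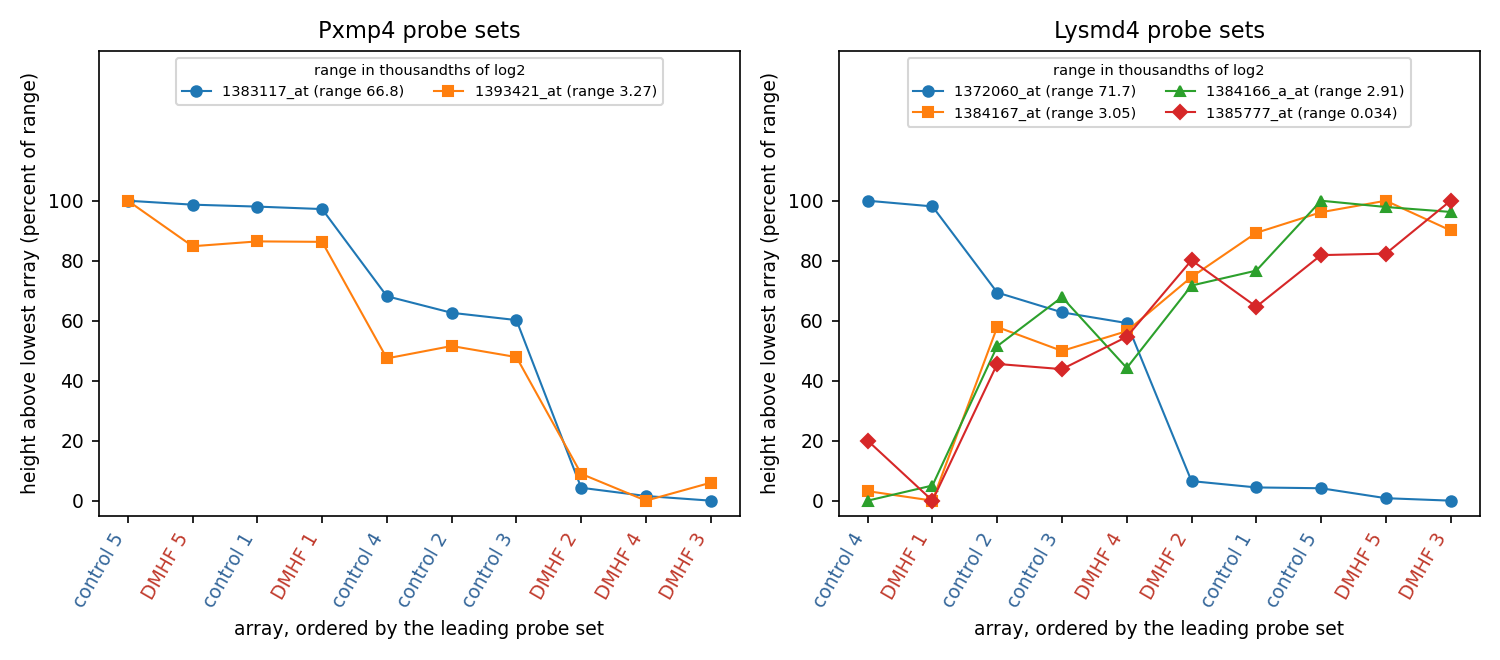
Height above the lowest array, in percent of each probe set's range, for the probe sets of Pxmp4 (left) and Lysmd4 (right), with the 10 arrays ordered by the leading probe set. Both lines of Pxmp4 step down together (r = 0.984), and the 3 other lines of Lysmd4 climb where the leading line falls (r from -0.950 to -0.927).

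A gene near Lysmd4 was most like its leading probe set. Synm, which encodes the intermediate filament protein synemin, lies 9 places from Lysmd4 on chromosome 1 in the gene order and had r = 0.929 over the 10 arrays (0.847 without the 2 farthest). Synm had heights of 0.715, 0.101, 0.000275, 0.426 and 0.0114 thousandths in DMHF rats 1 to 5, against 0.223, 0.291, 0.285, 0.737 and 0 thousandths in control rats 1 to 5. DMHF rat 1 and control rat 4 were again high, DMHF rat 4 and control rats 2 and 3 came next, and control rat 1 lay close below them. Tmed3 (r = 0.918) and Mvk (r = 0.917) followed, and 74.1% of single-gene probe sets had a closest partner with a higher r. Synm had an SD of 0.276 thousandths, and Tmed3 and Mvk of only 0.000881 and 0.00377 thousandths, against 29.8 thousandths for the leading probe set of Lysmd4.

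The gene order gave 1 further like neighbour. Lrrc28, 4 places after Lysmd4, had r = 0.863 for 1 of its probe sets and 0.522 for the other. Mef2a, a transcription factor gene next to Lysmd4, had r from -0.542 to 0.486 over 4 probe sets. Over all 7 genes, the nearest 2 measured genes on either side gave 28 genes with 42 probe sets, whose r with the leading probe set ran from -0.711 to 0.863 with a median of -0.026, and Lrrc28 was the single 1 over 0.8. None of these neighbours had an SD above 0.0335 thousandths. Some lay far off: Fads2b and Or5ak25 were 334 and 336 places before Ptprj, and Aldh1a3 and Chsy1 were 12 and 20 places before Lysmd4. The 5 measured genes of the LysM domain list were nominally lower in DMHF rats in 5 of 5, with 0 past limma's adjusted p and a median of -0.429 within-group SD, and their r with Lysmd4 ran from -0.41 to 0.53.

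Pde6g set 3 rats apart. Its probe set, 1389501_at (mean 6.96), had heights of 24.9, 2.89, 1.36, 16.5 and 0.827 thousandths in DMHF rats 1 to 5, against 0, 1.64, 0.787, 0.846 and 15.5 thousandths in control rats 1 to 5. DMHF rats 1 and 4 and control rat 5 were high, with DMHF rat 1 above the other two, and the remaining 7 rats lay within 2.89 thousandths of each other. The 2 gaps made up 84.4% of the range, a larger share than in all but 0.11% of probe sets.

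The genes most like Pde6g were Pdc (r = 0.984), Gngt2 (r = 0.980) and Gngt1 (r = 0.969), with r of 0.957, 0.952 and 0.920 without the 2 farthest arrays. Pdc encodes phosducin, a binding partner of the transducin beta and gamma subunits, and Gngt1 and Gngt2 encode the transducin gamma subunits of rods and cones. Prph2 (r = 0.968), a membrane protein of photoreceptor discs, and Gch1 (r = 0.966), the first enzyme of tetrahydrobiopterin synthesis, came next. Only 1.03% of single-gene probe sets had a closest partner with a higher r, compared with 6.62% for Abcg2 and 39.9% to 77.9% for the other 5 genes.

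The partners held the same 3 rats high. They were picked by their r with Pde6g over these same arrays, so this follows largely from the choice and is a description. Pdc had heights of 0.945, 0.0973, 0.0636, 0.547 and 0.166 thousandths in DMHF rats 1 to 5, against 0.0713, 0, 0.0319, 0.0351 and 0.621 thousandths in control rats 1 to 5. Gngt1 had heights of 4.80, 0.875, 0.398, 2.55 and 0.721 thousandths in DMHF rats 1 to 5, against 1.08, 0.685, 0.466, 0 and 2.91 thousandths in control rats 1 to 5. In both genes DMHF rat 1 was highest, and DMHF rat 4 and control rat 5 stood clear of the other 7 rats.

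Of the phototransduction genes listed, 15 were measured, and 4 of them, Gnat2, Gngt1, Gngt2 and Pdc, had these 3 rats as their 3 highest. In Gnat2, DMHF rat 1 at 0.112 thousandths lay close above DMHF rat 2 at 0.0931 thousandths. Over all genes, 1.47% had these 3 rats highest in any order, and over all probe sets 1.21%, but the list was drawn up with the pattern of Pde6g known. Most of the list did not follow Pde6g closely, with r from -0.28 (Gnat1) to 0.98 (Pdc and Gngt2). The other measured Pde6 genes, Pde6a, Pde6b, Pde6d and Pde6h, had r of 0.13, 0.32, 0.37 and -0.12. For DMHF against control, 13 of the 15 were nominally higher and 2 lower, 0 passed limma's adjusted p, and the median was 0.559 within-group SD. Cnga1, a rod channel subunit, had the smallest unadjusted limma p at 0.0159, with 1.82 within-group SD, followed by Rcvrn, the calcium sensor recoverin, at 0.0507 with 1.36 within-group SD.

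Markers of the pineal gland, a small midline gland that shares photoreceptor genes, moved with Pde6g in part. Of 9 listed genes, 7 were measured (Tph1 and Bsx are not named on the array here), and their mean values of 5.71 to 7.06 all lay below the array medians. Asmt, the last enzyme of melatonin synthesis, had heights of 0.200, 0.0289, 0.0355, 0.106 and 0.0398 thousandths in DMHF rats 1 to 5, against 0, 0.0361, 0.0109, 0.0741 and 0.168 thousandths in control rats 1 to 5. Its 3 highest rats were those of Pde6g, which held for 2 of the 7 genes, Asmt and Gngt1. Aanat, the rate-limiting enzyme of melatonin synthesis, had r = 0.03 with Pde6g over the 10 arrays. The transcription factors Otx2 and Crx had r = 0.79 and r = 0.63, but only 2 and 1 of the 3 rats were among their 3 highest. Sag and Lhx4, the remaining genes of the list, had r = 0.47 and r = 0.42.

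The mean of the 7 pineal genes had heights of 0.755, 0.105, 0.0495, 0.408 and 0.0984 thousandths in DMHF rats 1 to 5, against 0.143, 0.0941, 0.041, 0 and 0.429 thousandths in control rats 1 to 5. It was highest in the same 3 rats, and Gngt1, with the widest heights of the list, carries most of it. Lists of other tissues followed the 3 rats in part. The mean of the 8 measured choroid plexus genes was highest in DMHF rats 4 (0.345 thousandths) and 1 (0.249 thousandths) and lowest in control rat 5 (0). The mean of the 9 pituitary genes was 2.26 thousandths in DMHF rat 1, the highest of all, 1.77 thousandths in DMHF rat 4, the lowest DMHF rat, and 0.829 thousandths in control rat 5. Tshb and Cga, at 10.9 and 9.49 thousandths in DMHF rat 1, carry nearly all of the pituitary mean. Each other pituitary gene had a range of at most 0.0286 thousandths (Prl). The part of pineal or other tissue in the Pde6g values was not tested. In RNA of a tissue piece, fewer cells of a type and less RNA per cell cannot be told apart.

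**Figure D4:**
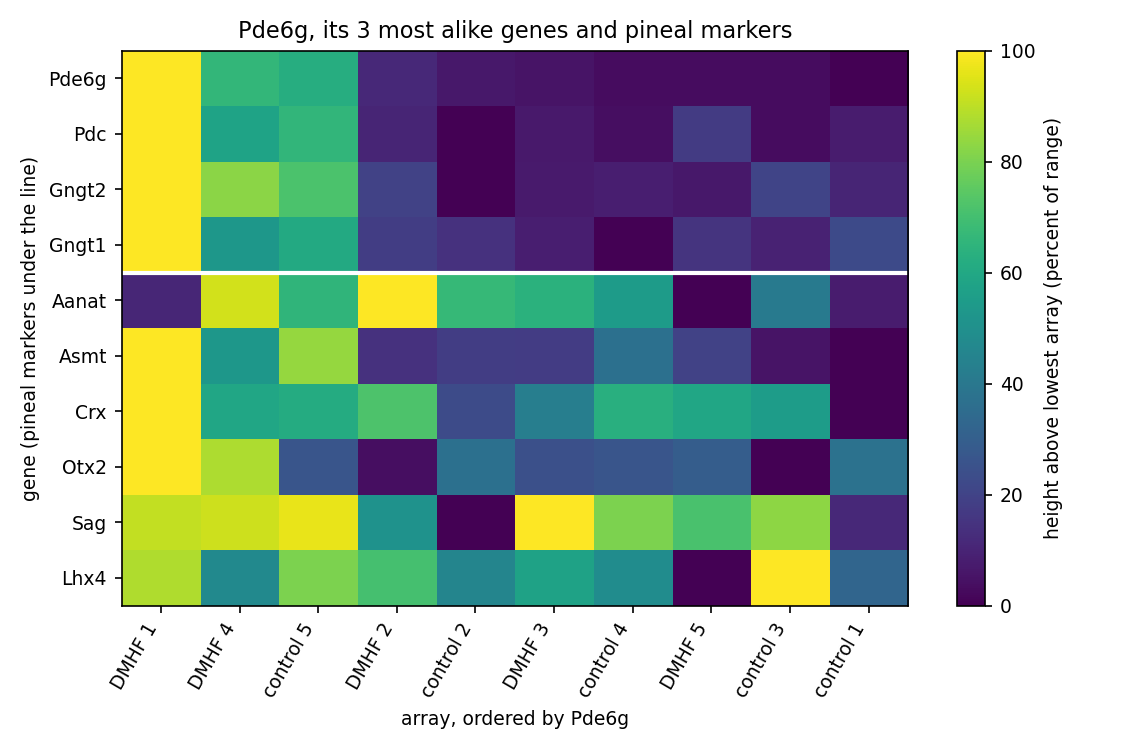
Height above the lowest array, in percent of each gene's range, for Pde6g, its 3 most alike genes and the markers of the pineal list, with the 10 arrays ordered by Pde6g. DMHF rats 1 and 4 and control rat 5 stand high for Pde6g, Pdc, Gngt2, Gngt1 and Asmt, and Aanat (r = 0.03) does not follow this order.

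Because Pde6g and its partners moved together over the rats, promoter sequences were looked up in the RefSeq promoter table of build GRCr8, which held Pdc and Gngt1 of these genes. Each stretch covers 300 bases on the plus strand, from 250 bases before to 50 after the start, at chr13:64908057-64908356 for Pdc and chr4:32960695-32960994 for Gngt1. Capitals mark the motif TAATCC, bound by the photoreceptor and pineal factor CRX, as it reads on either strand (GGATTA on the printed strand).
Pdc: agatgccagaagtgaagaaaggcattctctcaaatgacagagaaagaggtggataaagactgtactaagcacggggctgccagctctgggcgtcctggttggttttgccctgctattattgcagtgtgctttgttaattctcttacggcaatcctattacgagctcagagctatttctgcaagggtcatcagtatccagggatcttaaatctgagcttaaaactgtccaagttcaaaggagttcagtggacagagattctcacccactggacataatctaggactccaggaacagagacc
Gngt1: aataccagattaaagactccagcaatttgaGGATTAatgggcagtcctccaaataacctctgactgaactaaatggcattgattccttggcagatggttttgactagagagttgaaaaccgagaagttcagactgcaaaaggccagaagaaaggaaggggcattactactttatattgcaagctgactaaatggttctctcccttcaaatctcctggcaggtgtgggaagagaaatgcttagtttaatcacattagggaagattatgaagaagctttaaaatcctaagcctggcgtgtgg
The motif was found 1 time in the Gngt1 stretch, its first base 220 bases before the start, and 0 times in that of Pdc. It was present in 2399 of 33469 promoters of the same length, or 7.17%.

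Gabbr1 also set 3 rats apart, here as low, and DMHF rat 4 was among those of both Pde6g and Gabbr1. Its leading probe set, 1388030_a_at (mean 7.46), had heights of 13.3, 0.869, 19.3, 0.0868 and 12.6 thousandths in DMHF rats 1 to 5, against 12.8, 0, 12.4, 13.5 and 11.3 thousandths in control rats 1 to 5. DMHF rats 2 and 4 and control rat 2 were low, DMHF rat 3 was alone at the top, and the remaining 6 rats lay between 11.3 and 13.5 thousandths. The 2 gaps made up 84.4% of the range.

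The other 4 probe sets of Gabbr1 did not share these levels. Their means were 9.97 (1369371_a_at), 10.95 (1375720_at), 6.92 (1369372_at) and 11.47 (1388039_a_at), and their SD was at most 0.0199 thousandths. Pearson's r with the leading probe set was -0.693 for 1369371_a_at, 0.718 for 1375720_at, -0.006 for 1369372_at and -0.597 for 1388039_a_at, and -0.402, 0.564, -0.372 and -0.479 without the 2 farthest arrays. The 3 rats low in the leading probe set were the 3 highest of 1369371_a_at. The steps of Gabbr1 thus rested on 1 of its 5 probe sets.

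Other genes of GABA-B signalling had r between -0.27 and 0.54 with the leading probe set over the 10 arrays. Of 12 listed, 10 were measured, 4 nominally higher and 6 lower in DMHF rats, 0 past limma's adjusted p, with a median of -0.0905 within-group SD. Gabbr2, the signalling partner of Gabbr1, had a mean value of 10.70, and Gnao1, a G protein subunit that the receptor acts through, had the smallest unadjusted limma p at 0.0586, with -1.33 within-group SD. The genes most like the leading probe set were Clcf1 (r = 0.926), Polr3g (r = 0.920) and Pip4p2 (r = 0.887). A closest partner with a higher r was found for 77.9% of single-gene probe sets. Clcf1, Polr3g and Pip4p2 had an SD of only 0.00183, 0.003 and 0.000998 thousandths, against 6.76 thousandths for the leading probe set.

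Ptprj split the rats into 5 high and 5 low. Its leading probe set, 1368589_at (mean 8.18), had heights of 5.22, 0.498, 6.28, 9.49 and 6.45 thousandths in DMHF rats 1 to 5, against 0.288, 0.284, 0, 0.54 and 6.17 thousandths in control rats 1 to 5. DMHF rats 1, 3, 4 and 5 and control rat 5 were high, and DMHF rat 2 and control rats 1 to 4 were low, so the groups overlapped in both directions. The largest gap, of 4.68 thousandths, lay between these sets of 5 rats and took 49.4% of the range.

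The other Ptprj probe set, 1382094_at (mean 9.14), had an SD of 0.00839 thousandths and r = -0.369 with the leading one, or -0.128 without the 2 farthest arrays, so the levels of Ptprj rested on 1 of 2 probe sets. The 4 related receptor phosphatases of the same class were all measured (r with Ptprj from -0.2 to 0.11), with 2 nominally higher and 2 lower, 0 past limma's adjusted p, and Ptprb, found in blood vessels, at the smallest unadjusted limma p of 0.324, with -0.63 within-group SD. Ube3a (r = 0.944), Sbk1 (r = 0.927) and Wee1 (r = 0.926) were most like Ptprj, and 51.2% of single-gene probe sets had a closest partner with a higher r. These 3 genes barely varied, with an SD of 0.000399, 0.00136 and 0.000545 thousandths, against 3.54 thousandths for the leading probe set of Ptprj.

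Creg2 had a large middle level with single rats outside it. Its probe set, 1396060_at (mean 6.91), had heights of 27.9, 6.45, 26.1, 25.3 and 28.4 thousandths in DMHF rats 1 to 5, against 27.9, 26.0, 36.9, 25.5 and 0 thousandths in control rats 1 to 5. DMHF rat 2 and control rat 5 were low, control rat 3 was high, and the remaining 7 rats lay between 25.3 and 28.4 thousandths. Its relative Creg1 differed by -0.413 within-group SD between the groups with a limma unadjusted p of 0.512.

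The likeness to Creg2 rested on the outer rats for Gpatch11 and Pcnx4, but less so for Ehd3. Gpatch11 had r = 0.942 over the 10 arrays but 0.664 without the 2 farthest, and Pcnx4 had 0.929 and 0.420, while Ehd3 had 0.927 and 0.868. Of single-gene probe sets, 54.4% had a closest partner with a higher r. Gpatch11, Pcnx4 and Ehd3 had an SD of only 0.00219, 0.00697 and 0.00127 thousandths, against 11.1 thousandths for Creg2.

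Abcg2 had the least clear steps of the 7 genes. Its probe set, 1380577_at (mean 7.27), had heights of 8.30, 0.00327, 0, 4.11 and 5.42 thousandths in DMHF rats 1 to 5, against 5.35, 4.93, 0.214, 5.80 and 0.773 thousandths in control rats 1 to 5. DMHF rats 2 and 3 and control rats 3 and 5 were low, within 0.773 thousandths of each other, 5 rats lay between 4.11 and 5.80 thousandths, and DMHF rat 1 was alone at 8.30 thousandths. The largest gap took 40.3% of the range, below the 95th percentile of all probe sets.

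Of 10 endothelial genes, the cell type that carries Abcg2 in brain, 9 were measured (Cdh5 is not named on the array here). Their r with Abcg2 ran from -0.54 to 0.74 over the 10 arrays, with Flt1 at 0.74, Tek at 0.60 and Cldn5 at 0.02. The mean of the 9 genes had heights of 0.00459, 0.00154, 0, 0.00326 and 0.00495 thousandths in DMHF rats 1 to 5, against 0.00744, 0.00412, 0.00613, 0.00354 and 0.000664 thousandths in control rats 1 to 5. DMHF rats 2 and 3 and control rat 5, low in Abcg2, were the 3 lowest of this mean, while control rat 3, also low in Abcg2, was next to its top. Markers of other brain cells reached a higher r with Abcg2. The 4 measured oligodendrocyte genes had r from 0.44 to 0.86, with Mag, a myelin glycoprotein, at 0.86, and the 5 astrocyte genes had r from -0.77 to 0.79. The 8 meningeal genes had r from 0.19 to 0.73, and the 7 neuron genes from -0.77 to 0.73. The mean of the oligodendrocyte genes was 0, 0.00108 and 0.00257 thousandths in DMHF rats 2 and 3 and control rat 3, its 3 lowest rats and all low in Abcg2, but 0.00587 thousandths in control rat 5. The part of vessels or of other cell types in the Abcg2 values was not tested.

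Other transporters of the barrier showed 0 genes past limma's adjusted p among 15 measured of 17 listed, with 6 nominally higher and 9 lower in DMHF rats and a median of -0.0766 within-group SD. Their r with Abcg2 ran from -0.64 to 0.78. The smallest unadjusted limma p of the list belonged to the efflux pump genes Abcc1 (0.0604, with -1.33 within-group SD) and Abcg8 (0.0731, with 1.23 within-group SD). Cd59b (r = 0.973), Ankrd6 (r = 0.966) and Scp2 (r = 0.962) were most like Abcg2. They barely varied, with an SD of 0.000416, 0.00155 and 0.00136 thousandths, against 2.99 thousandths for Abcg2.

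The 7 genes each sorted the rats in their own way. Among the 21 pairs of leading probe sets, Pearson's r over the 10 arrays ran from -0.247 to 0.59. In the leading probe sets, DMHF rat 1 was high for Pxmp4, Lysmd4, Pde6g, Ptprj and Abcg2. It was lowest or next to lowest in the other probe sets of Lysmd4 and Ptprj. Control rat 5 was high in the leading probe sets of Pxmp4, Pde6g and Ptprj but lowest in that of Creg2. Other probe sets with the same rats on top were found for each gene. They numbered 77 (0.248% of those tested) for Lysmd4 and 91 (0.293%) for Ptprj, each with 5 rats on top, and 796 (2.56%) for Creg2, with 8. Such shares depend on how many rats are on top, so they cannot be compared between these genes. With the largest gap also at the same place, 4 remained for Lysmd4, 5 for Ptprj and 72 for Creg2. Among 60 measured markers of 9 cell types and tissues, r with the leading probe set ran from -0.86 to 0.83 for Pxmp4, from -0.62 to 0.64 for Lysmd4 and from -0.53 to 0.68 for Creg2. It ran from -0.7 to 0.97 for Pde6g (Gngt1 of the pineal list at the top), from -0.65 to 0.72 for Gabbr1, from -0.53 to 0.64 for Ptprj and from -0.77 to 0.86 for Abcg2. The part of cell composition in the steps was not tested. The 12 Affymetrix control probe sets for rat RNA had r between -0.66 and 0.72 with the 7 leading probe sets, and the part of RNA quality was not tested.

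DMHF and control rats did not differ past the threshold in any of the 16 probe sets. The question the design asks is whether the inhaled vapor changed transcripts in the brain. With limma, 0 of 16 probe sets passed an adjusted p of 0.05, as did 0 (0.0%) of all 31042, none of which went below an adjusted p of 0.698. Unadjusted, 1 of 16 had a p under 0.05, the leading probe set of Ptprj, where 5.48% of all probe sets did. In 0 of 16 did the groups fail to overlap, compared with 0.867% of all probe sets. Of the 16, 10 were nominally higher in DMHF rats and 6 lower, and the median size of the difference was 0.404 within-group SD, beside 0.458 within-group SD over all probe sets.

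The leading probe set of Ptprj had a mean height of 5.59 ± 3.26 thousandths in DMHF rats and 1.46 ± 2.64 thousandths in control rats (SD, n = 5 each). The difference was 4.13 thousandths, with a 95% interval of 0.0828 to 8.18, an unadjusted limma p of 0.0464 and an adjusted p of 0.900. By an exact two-sided permutation test over all assignments of the arrays to the groups, whose smallest possible p is 0.00794, p was 0.0635. In 3 of 5 DMHF rats the value lay above all control rats.

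For the leading probe sets of the other 6 genes the pooled within-group SD was larger than the difference, and the intervals were wide. Pxmp4 (1383117_at) had a mean height of 26.9 ± 35.1 thousandths in DMHF rats and 52.0 ± 13.1 thousandths in control rats (SD, n = 5 each), a difference of -25.0 thousandths (95% interval -61.2 to 11.2, adjusted limma p = 0.956, exact permutation p = 0.159). All 3 of its low rats were DMHF rats and all 3 of its middle rats were control rats, while its high level held 2 rats of each group. Lysmd4 (1372060_at) had a mean height of 23.6 ± 31.6 thousandths in DMHF rats and 34.5 ± 30.4 thousandths in control rats (SD, n = 5 each), a difference of -10.9 thousandths (95% interval -53.2 to 31.4, exact permutation p = 0.484).

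Pde6g had a mean height of 9.29 ± 10.9 thousandths in DMHF rats and 3.75 ± 6.59 thousandths in control rats (SD, n = 5 each), a difference of 5.54 thousandths (95% interval -6.71 to 17.8, exact permutation p = 0.214). Its high level held 2 DMHF rats and 1 control rat. Differences were closest to 0, beside their spread, for the last 3 genes. Creg2 differed by -0.439 thousandths (95% interval -16.4 to 15.6, exact permutation p = 0.929), with mean heights of 22.8 ± 9.23 thousandths in DMHF rats and 23.2 ± 13.8 thousandths in control rats (SD, n = 5 each). Gabbr1 (1388030_a_at) differed by -0.76 thousandths (95% interval -10.5 to 9.01, exact permutation p = 0.929), with mean heights of 9.23 ± 8.40 thousandths in DMHF rats and 9.99 ± 5.64 thousandths in control rats (SD, n = 5 each). Abcg2 differed by 0.154 thousandths (95% interval -4.17 to 4.48, exact permutation p = 0.968), with mean heights of 3.57 ± 3.59 thousandths in DMHF rats and 3.41 ± 2.69 thousandths in control rats (SD, n = 5 each).

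The 9 further probe sets had exact permutation p between 0.103 and 0.889. The lowest was 1369372_at of Gabbr1, higher in DMHF rats by 0.00302 thousandths or 1.22 within-group SD (exact permutation p = 0.103, adjusted limma p = 0.931). A p above the threshold does not show that the groups were alike, and the intervals, as wide as the steps themselves, leave room for differences of that size. The limma p-values weigh the group difference against the spread between these rats, and the permutation p-values weigh it against reassigned arrays.

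**Figure D5:**
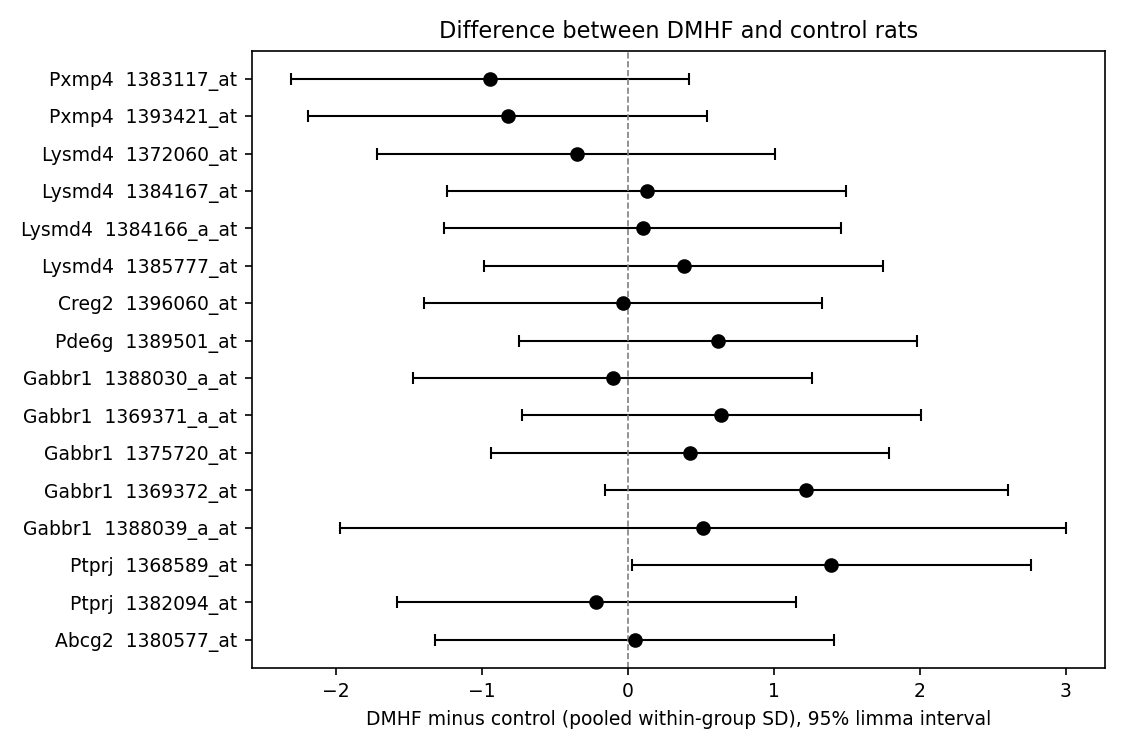
Difference of DMHF minus control for the 16 probe sets, in within-group SD, with 95% limma intervals. Intervals of 15 of 16 probe sets cross 0, and that of Ptprj 1368589_at lies just above it, with an adjusted p of 0.900.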

How the data were processed

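Brain RNA of 5 rats that breathed DMHF vapor and 5 that breathed water vapor was measured on 1 Affymetrix array per rat. The sample titles gave the group and replicate number. The authors deposited 1 table of values for 31099 probe sets, read here as log2 from their range because no log base is named. R 2.7.2 was used, per the submitters' processing notes. The methods of background correction, normalization and probe set summary, and the step that left differences between arrays so small, were not given in the sources used here.

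For all tests, 57 Affymetrix control probe sets were dropped, and GEO's platform annotation gave the gene names. DMHF was set against control on the deposited values in limma 3.58.1 (R 4.3.3; lmFit and eBayes, 10 arrays, no covariate, two-sided) with Benjamini-Hochberg adjustment over 31042 probe sets and a threshold of 0.05. The prior degrees of freedom were 0.841. Single probe sets were also compared by exact permutation of the arrays. The fit was tested on simulated data. Gaps, agreement and likeness (Pearson's r, n = 10, given with no p) were computed in Python 3.11.15 with numpy 2.4.6 and scipy 1.17.1.

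The genes and the 16 lists (146 genes, 127 measured) were chosen with earlier results of these data known. Named genes were the 7 genes, the 3 genes most like each leading probe set, the nearest 2 measured genes on either side, and up to 4 genes of a described list by smallest unadjusted p, without symbols beginning LOC or RGD. Other genes of the lists, and genes 4 and 5 of the likeness order of Pde6g, were named after their values were seen. In lists the brightest probe set stood for a gene (14217 genes). Gene order came from the NCBI gene table of GRCr8, where 20758 of 20826 gene IDs were found. Alternatives were a block by replicate number, other normalizations, filters and variance models, and leaving out each array. Likeness without the 2 farthest arrays was added after the data were seen. The number of arrays limits the precision.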

Additional observations from a re-analysis of the deposited data

Results flagged for a closer look

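In 5 of the 32 groups of 5 arrays, 2 groups for each of the 16 probe sets, 1 array stood far from the other 4. Its gap to the nearest of them, as a share of the group's range, was above 0.71. Chance flags about 1 in 20 groups that were not chosen by their values. These genes were chosen for wide, stepped spread over the same arrays, and 4 of the 5 are leading probe sets, so their number is a description and cannot be set against that rate. Creg2 was far lower in DMHF rat 2, at 6.45 thousandths against 25.3 thousandths in the nearest DMHF rat, with a share of 0.86. Pde6g was far higher in control rat 5, at 15.5 thousandths against 1.64 thousandths in the nearest control rat, with a share of 0.894. The leading probe set of Gabbr1 was far lower in control rat 2, at 0 against 11.3 thousandths in the nearest control rat, with a share of 0.841. The leading probe set of Ptprj was far higher in control rat 5, at 6.17 thousandths against 0.54 thousandths in the nearest control rat, with a share of 0.912. The other Ptprj probe set, 1382094_at, was far higher in control rat 3, with a share of 0.924.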

How the results depend on the processing

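For all probe sets, 0 passed limma's adjusted p under the replicate block, a common array median, the brighter part of the probe sets, a trended and robust variance and an unmoderated model. After quantile normalization 13 of 10076 passed, with probe sets that became constant left out after the data were seen, and the cause was not tested. Leaving out each array gave 0 to 1 called probe sets, with 1 without DMHF rat 2. Of the 16 probe sets of the 7 genes, 0 passed under any of these settings, though quantile normalization tested 11 and the brighter part of the probe sets 9. The rats above the largest gap stayed the same for 7 of 7 leading probe sets under every setting run on the steps. A common array median could hardly move them. Array medians ranged over 15.2 millionths of a log2 unit, and the narrowest of these gaps was 3.34 thousandths (Abcg2).

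The sign of the difference depended on single arrays for 6 probe sets. Leaving out each array, DMHF minus control ran from -0.277 to 0.640 thousandths for Lysmd4 1384167_at, from -0.320 to 0.534 for 1384166_a_at, from -6.25 to 3.65 for Creg2, from -3.27 to 1.53 for Gabbr1 1388030_a_at, from -0.00503 to 0.0011 for Ptprj 1382094_at and from -1.03 to 1.05 for Abcg2. The leading probe set of Ptprj ran from 3.16 to 5.40 thousandths. Largest gaps widened to as much as 77.6% of the range for Gabbr1 without DMHF rat 3, 76.4% for Pde6g without DMHF rat 1 and 72.6% for Ptprj without DMHF rat 4.

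The labels do not say that equal replicate numbers pair rats, and deviations of equal numbers correlated at 0.0288 to 0.273. For DMHF rats 1, 3 and 4 the control rat with the most alike deviations carried the same number, and for DMHF rats 2 and 5 it did not. The levels of Pxmp4 also went by number, with rats 1 and 5 of both groups high and rats 2, 3 and 4 of both groups lower. Whether the numbers stand for a shared litter, cage or day was not tested. With the replicate block, 0 probe sets passed, and of the 16 probe sets 3 had an unadjusted limma p under 0.05, against 1 without it. The 2 gained were those of Pxmp4, 1383117_at with 0.0408 (adjusted p = 0.675), against 0.152 without the block, and 1393421_at with 0.018 (adjusted p = 0.597), against 0.206 without it. The number of arrays limits all values.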
